A study of Rattus norvegicus with 62 samples.

Results

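Oxidative phosphorylation is carried out in the inner mitochondrial membrane by 5 multisubunit complexes. The genes of their nuclear-encoded subunits were followed here in cardiac muscle of male Wistar rats given rosiglitazone. Members were taken by symbol, as every probe set whose platform annotation gives exactly 1 gene with a symbol that starts with Nduf, Uqcr, Cox4, Cox5, Cox6, Cox7, Cox8 or Atp5, or that is Sdha, Sdhb, Sdhc, Sdhd, Cyc1 or Cycs. This gave 97 probe sets for 87 genes, of 14217 genes with such a probe set on the array, and the brightest probe set stood for each gene. They were assigned to complexes by symbol, so a member need not be a structural subunit. This gave 34 genes of complex I, 6 complex I assembly factors (the Ndufaf genes), 4 of complex II, 8 of complex III, 19 of complex IV and 16 of complex V. Ndufa4 and Ndufa4l2 were counted with complex IV, where the Ndufa4 protein is known to reside. The rule also takes Cox6c-ps1, which the annotation names as a pseudogene. A further 9 probe sets name several genes and were left out, so cytochrome c (Cycs), Cox7a2, Uqcrb, Ndufs5, Ndufa10, Atp5mc1 and Atp5mc2 have no member.

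Complexes I to IV pass electrons from NADH and succinate to oxygen and complexes I, III and IV pump protons across the membrane, while complex V, the ATP synthase, uses the returning protons to make ATP. The heart draws most of its ATP from this route and carries transcripts of these subunits at high abundance, some of them as isoforms particular to striated muscle. Rosiglitazone is a thiazolidinedione, an agonist of the nuclear receptor PPAR gamma that is used against type 2 diabetes.

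Each animal received by mouth, once a day for 14 days, vehicle (0 mg/kg/day) or rosiglitazone at 10 or 80 mg/kg/day, and tissue was taken 6, 24, 168 or 336 h after the last dose. Of 62 arrays, 1 per sample, the vehicle groups held 4, 6, 5 and 5 in the order of those times. The lower dose had 5, 5, 5 and 6, and the higher dose 5, 5, 6 and 5. The heart was cut sagittally before storage, and the labels name no chamber. Ages are not given in the sources used here, and neither is the composition of the vehicle. The labels number the samples of a group without stating that each is its own animal, and p-values here reflect only how these samples vary, which may be technical. In RNA of whole tissue, a loss of cells of a type and less RNA per cell cannot be told apart. The comparisons of 80 and of 10 mg/kg with vehicle share the vehicle arrays and are therefore not independent.

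The deposited signals did not share a scale between arrays, with array medians from 31.1 to 86.9, so log2 signals were quantile normalized, and every level below is such a log2 signal. Of 31042 probe sets, the 18625 at or above a mean level of 5.03 were tested, among them 85 of the 87 members. Cox6b2 and Cox7b2 lay below that level. All 7 measured cardiomyocyte markers were kept, and their summed level lay between 16.42 and 16.54 on every array. Quantile normalization gives the top ranks of every array the same values, which narrows the range of bright markers. That range is therefore no measure of cardiomyocyte content. The 4 atrial markers varied more, with a summed level of 9.25 to 14.59, and 10 arrays, all at 6 or 24 h, had Myl7 (the atrial myosin light chain) above 9, of which 1 was vehicle, 4 were 10 mg/kg and 5 were 80 mg/kg. All 4 atrial markers averaged higher at 80 mg/kg, with a median difference of 1.02 and 0 called by limma (4 unadjusted). Without those 10 arrays 0 members were called in every comparison of doses. The median over members was -0.05 to -0.00 on those 10 arrays, with a middle value of -0.033, and -0.03 to 0.04 on the other 20 arrays of these times, with a middle value of 0.0022. Its SD between replicates was 0.021. Without the 10 arrays the members' median difference at 80 mg/kg and 24 h went from -0.025 to -0.0015. The 10 held 3 of the 5 arrays of that group and 4 of the 5 at 10 mg/kg and 6 h. Few arrays were thus left in these 2 groups. The first 2 principal components parted the arrays into 3 clusters of 21, 20 and 21. The second held the arrays with a hexokinase control difference (3' minus 5' probe set, a sign of RNA or labelling quality) of 2.09 to 6.08, against 1.38 to 2.45 on the others. All 16 arrays at 336 h lay in the third cluster.

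No member was called as different between a rosiglitazone dose and vehicle at any time, and most estimated differences were small. In limma's moderated test with Benjamini-Hochberg adjustment over the 18625 probe sets, 0 of 85 members had an adjusted p under 0.05 for 80 mg/kg against vehicle at 6, 24, 168 or 336 h. Over all probe sets 0.0537%, 0.14%, 0.0537% and 0.29% were called in those 4 comparisons, so a count of 0 among 85 is near that background. At an unadjusted p under 0.05 the members numbered 2, 9, 1 and 4, of 1239, 2065, 1014 and 1298 probe sets in all. For 10 mg/kg against vehicle the count was 0 of 85 members at each time by limma, with 0 of all probe sets (0%) called, and 0, 4, 0 and 2 members (0%, 4.71%, 0% and 2.35%) passed without adjustment, beside 6.42%, 5.84%, 3.86% and 3.63% of all probe sets. Between 80 and 10 mg/kg the limma counts were again 0 members, against 0%, 0.0107%, 0.0376% and 0.102% of all probe sets, and 2, 0, 0 and 0 members passed without adjustment, the first being 2.35%, beside 3.68%, 3.74%, 4.73% and 3.59% of all probe sets.

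Averaged over the 4 times, 0 of 85 members were called by limma for 80 mg/kg, where 89 probe sets (0.478%) were called, and 0 for 10 mg/kg, where 2 probe sets (0.0107%) were called. At an unadjusted p under 0.05 there were 2 members (2.35%) at each dose, beside 9.54% of all probe sets at 80 mg/kg and 4.77% at 10 mg/kg. The median difference of the members from vehicle was -0.02 at 80 mg/kg and -0.01 at 10 mg/kg, beside -0.00 and -0.01 over all probe sets tested. At the single times it ran from -0.02 to 0.00 at 80 mg/kg and from -0.03 to 0.01 at 10 mg/kg. The 95% confidence interval of 78 of the 85 members (91.8%) lay within a 1.2-fold change in either direction for 80 mg/kg averaged over times. The same held for 48.6% of all probe sets, which vary more. The median SD within groups was 0.08 for members, 0.30 for all and 0.09 for those with a mean level of 12 or more. These intervals are those under quantile normalization. The plot of differences by complex shows where the intervals are wide.

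**Figure D1:**
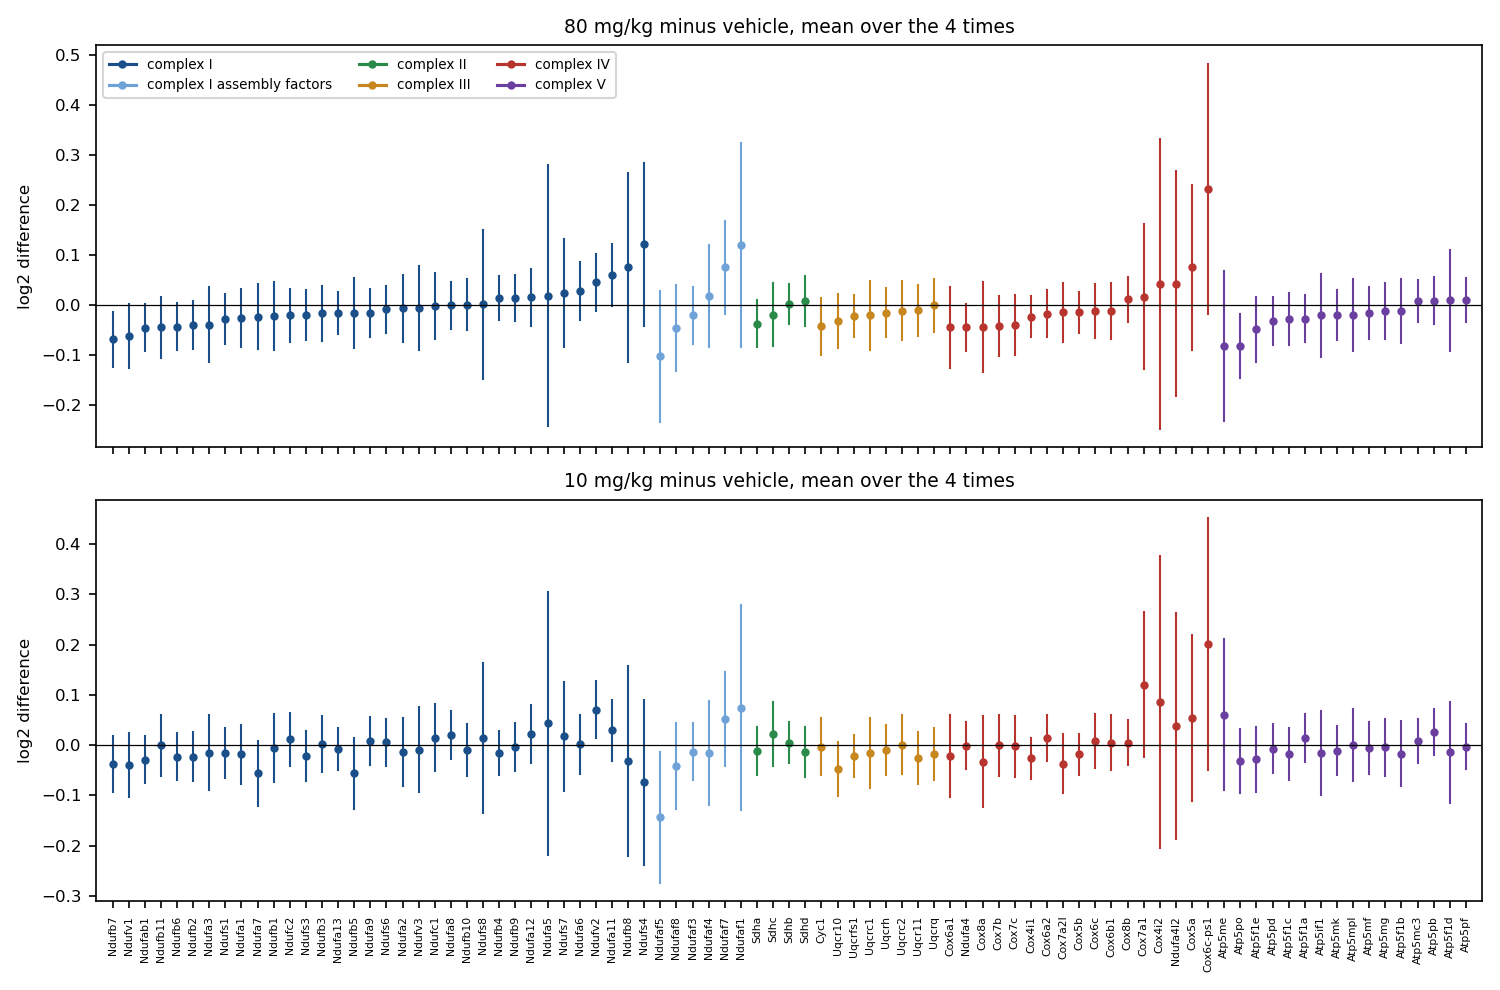
Difference from vehicle averaged over the 4 times (log2, y axis) for each of the 85 members (x axis, grouped and coloured by complex), at 80 mg/kg above and 10 mg/kg below. Points are limma estimates and bars 95% confidence intervals. Among the widest bars are those of the dim members Cox4i2 and Cox6c-ps1 and of Ndufa5, which is not dim.

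Complex I takes electrons from NADH. For its 34 members the difference at 80 mg/kg averaged over times had a median of -0.01, with 12 members above 0 and 22 below. The extremes were Ndufs4 (an accessory subunit) at 0.12 ± 0.08 (SE) and Ndufb7 at -0.07 ± 0.03, with limma adjusted p of 0.691 and 0.37. Ndufb7 had an unadjusted p of 0.0171 and was chosen after its values were seen. Ndufv1, which binds the FMN cofactor and NADH, lay at -0.06 ± 0.03 (adjusted p = 0.544). Ndufv2, its partner subunit with an iron-sulphur cluster, was also chosen after its values were seen. It had the smallest adjusted p of any member at 336 h. There the 80 mg/kg arrays read 13.03, 13.05, 13.13, 13.10 and 13.00 and the vehicle arrays 12.87, 12.78, 12.79, 13.03 and 12.98. Those groups overlapped, and the difference of 0.17 had a limma adjusted p of 0.318.

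The 6 assembly factors build complex I without staying in it. Their median difference was -0.00 at 80 mg/kg and -0.01 at 10 mg/kg averaged over times. Ndufaf5 had the lowest value, -0.10 ± 0.07 at 80 mg/kg and -0.14 ± 0.07 at 10 mg/kg (limma adjusted p = 0.668 and 0.998), and Ndufaf1 the highest, 0.12 ± 0.10 and 0.07 ± 0.10 (adjusted p = 0.783 and 0.998). The array medians of this group had a wide span, from -0.16 to 0.20.

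Complex II, succinate dehydrogenase, also belongs to the citric acid cycle. Sdha, its flavoprotein, read 12.77, 12.87, 13.01 and 12.98 in vehicle at 6 h and 12.88, 12.88, 12.95, 12.87 and 12.96 at 80 mg/kg. At 336 h it read 13.00, 12.98, 13.01, 13.02 and 12.96 in vehicle and 12.89, 12.93, 13.03, 12.86 and 12.88 at 80 mg/kg. In both pairs the groups overlapped, and 4 of the 5 treated arrays at 336 h lay below every vehicle array. Averaged over times Sdha differed by -0.04 ± 0.02 (limma adjusted p = 0.668). The iron-sulphur subunit Sdhb and the membrane anchors Sdhc and Sdhd differed by 0.00 ± 0.02, -0.02 ± 0.03 and 0.01 ± 0.02, with adjusted p of 0.986, 0.913 and 0.958. The signs of Sdhb and Sdhd turned under other scalings.

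Complex III passes electrons from ubiquinol to cytochrome c. All 8 of its members had a difference below 0 at 80 mg/kg averaged over times, from -0.04 for Cyc1 (cytochrome c1) to -0.00 for Uqcrq, with a median of -0.02 and no call. Cyc1 differed by -0.04 ± 0.03 (limma adjusted p = 0.69) and Uqcr10 by -0.03 ± 0.03 (adjusted p = 0.786). At the single times 5, 4, 7 and 6 of the 8 lay below vehicle. At 10 mg/kg 7 of the 8 were below, with a median of -0.02.

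Complex IV, cytochrome c oxidase, reduces oxygen. Its 17 tested members had a median of -0.01 at 80 mg/kg averaged over times, with 6 above and 11 below 0. Cox6c-ps1 stood highest, at 0.23 ± 0.12 for the higher dose and 0.20 ± 0.12 at the lower dose (limma adjusted p = 0.575 and 0.998). Its 80 mg/kg arrays at 168 h reached from 6.89 to 8.36 with a median of 7.26, against 7.12, 6.59, 6.98, 7.10 and 7.39 in vehicle. The excess there came with 2 of 6 arrays at 8.36 and 8.22, and the other 4 lay within the vehicle range.

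Complex V makes ATP. The median over its 16 members was -0.02 at 80 mg/kg averaged over times, with 4 above and 12 below 0. Atp5po, the stalk subunit OSCP, differed by -0.08 ± 0.03, with an unadjusted p of 0.0141 and a limma adjusted p of 0.349, the smallest adjusted p of any member in that comparison. Atp5me, a membrane subunit, also differed by -0.08, with a larger error of 0.07 (adjusted p = 0.807). At 336 h Atp5po read 13.06, 13.14, 13.14, 13.07 and 13.10 at 80 mg/kg and 13.27, 13.14, 13.15, 13.20 and 13.15 in vehicle. The groups did not overlap, but the highest treated and the lowest vehicle array both rounded to 13.14, and the adjusted p was 0.912.

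**Figure D2:**
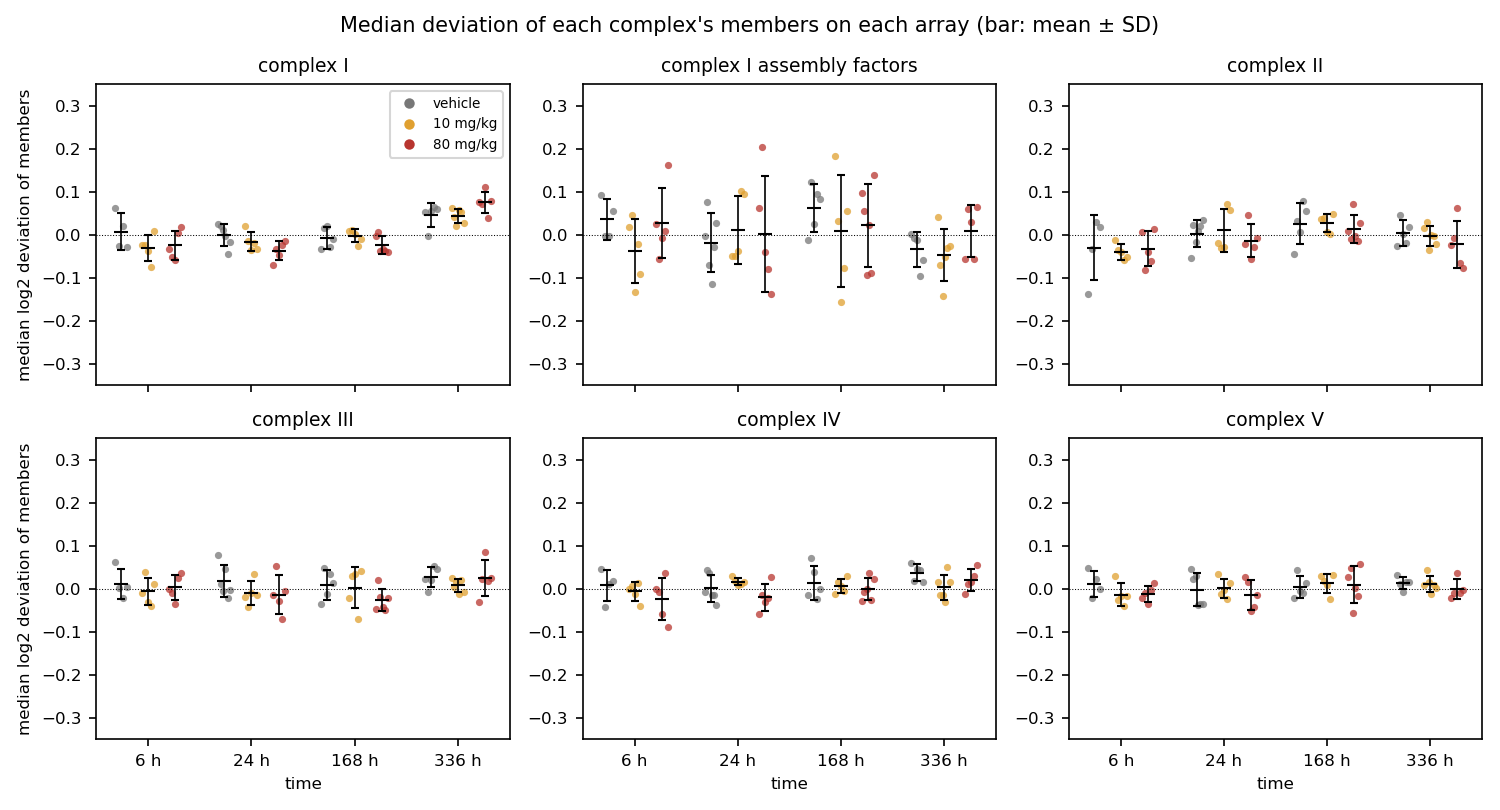
Median over the members of each complex of the log2 deviation from the member's mean over all arrays (y axis), for each array in the 12 groups (x axis, time, colour for dose). Each point is 1 array and bars give the mean ± SD, and the doses of a time overlap in every panel.

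Promoter sequence was not used to choose the members. Of the 87 members, 78 matched a promoter in RefSeq's table for build GRCr8 by gene identifier, each with 250 bases before and 50 after the gene's start. Both strands were searched for CCGGAAG (the ETS family, which includes GABP), GCGCANGCG (NRF1), AANATGGC (YY1) and TNAAGGTCA (the oestrogen-related receptors). ETS letters occurred in 28.2% of the 78 promoters and in 9.22% of the 27457 genes of the table. NRF1 letters occurred in 24.4% and 6.26%, YY1 letters in 41.0% and 7.36%, and those of the oestrogen-related receptors in 3.85% and 1.15%. At least 1 of the 4 occurred in 54 members (69.2%) and in 20.9% of all genes. The genes of the table were not limited to those on the array or those bright in heart, and the first promoter listed stood for each gene. A match is a run of letters, not a bound site.

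The isoform pair Cox8a and Cox8b is shown because its promoters differ in these letters. Cox8a is the ubiquitous form of a small complex IV subunit and Cox8b the form of heart and skeletal muscle. The complex II subunits Sdha and Sdhb and the complex V subunit Atp5me are shown for the NRF1, ETS and YY1 letters. The 250 bases before each start follow, 5′ to 3′, with the matched letters in capitals.
Cox8a, chr1:213833624-213833873, minus strand: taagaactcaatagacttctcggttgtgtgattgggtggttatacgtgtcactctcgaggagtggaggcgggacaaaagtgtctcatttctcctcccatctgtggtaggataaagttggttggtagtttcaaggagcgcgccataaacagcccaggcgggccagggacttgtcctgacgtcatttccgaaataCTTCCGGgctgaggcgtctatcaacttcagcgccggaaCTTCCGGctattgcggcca
Cox8b, chr1:205408274-205408523, minus strand: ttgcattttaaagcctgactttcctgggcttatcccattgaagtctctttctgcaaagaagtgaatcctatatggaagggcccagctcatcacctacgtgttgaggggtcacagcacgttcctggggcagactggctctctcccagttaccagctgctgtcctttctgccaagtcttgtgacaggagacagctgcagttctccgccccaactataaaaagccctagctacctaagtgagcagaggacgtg
Sdha, chr1:30764303-30764552, plus strand: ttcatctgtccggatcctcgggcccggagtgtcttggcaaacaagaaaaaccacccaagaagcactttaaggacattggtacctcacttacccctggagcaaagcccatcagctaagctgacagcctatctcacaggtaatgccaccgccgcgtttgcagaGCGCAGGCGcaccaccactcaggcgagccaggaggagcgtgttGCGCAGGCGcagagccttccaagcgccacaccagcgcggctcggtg
Sdhb, chr5:158547684-158547933, plus strand: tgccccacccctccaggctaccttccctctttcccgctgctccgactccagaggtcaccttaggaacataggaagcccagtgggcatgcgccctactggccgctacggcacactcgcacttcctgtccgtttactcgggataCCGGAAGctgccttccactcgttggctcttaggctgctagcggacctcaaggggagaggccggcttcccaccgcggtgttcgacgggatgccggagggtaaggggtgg
Atp5me, chr14:1464610-1464859, plus strand: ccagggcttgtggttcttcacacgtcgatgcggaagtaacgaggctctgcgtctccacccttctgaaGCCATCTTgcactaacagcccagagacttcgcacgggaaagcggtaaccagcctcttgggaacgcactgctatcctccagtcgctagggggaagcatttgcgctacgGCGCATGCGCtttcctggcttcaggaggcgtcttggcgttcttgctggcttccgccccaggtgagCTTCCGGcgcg
Cox8a held the ETS letters at 2 places, 57 and 19 bases before the start, both on the opposite strand. Cox8b held none of the 4 motifs. Sdha held NRF1 letters 89 and 46 bases before the start and Sdhb ETS letters 108 bases before it. Atp5me held ETS letters 11 and YY1 letters 183 bases before the start, and NRF1 letters on both strands in overlapping positions, 76 and 75 bases before it. Over the whole window, which includes the 50 bases after the start that are not printed, Cox8a held 1 further match (YY1), Sdha 2 (1 NRF1 and 1 YY1) and Sdhb 1 (YY1), and Cox8b and Atp5me held no others. None of these 5 genes was called in a comparison of a dose with vehicle.

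Cox5a, a complex IV subunit that lies on the matrix side, came closest to a call at a single time. At 24 h the 80 mg/kg arrays read 9.69, 9.38, 9.32, 8.85 and 9.68, and the 6 vehicle arrays reached from 8.41 to 9.24 with a median of 8.56. The 10 mg/kg arrays read 8.98, 8.73, 9.33, 9.38 and 9.86. Above the vehicle range lay 4 of 5 arrays at the higher dose and 3 of 5 at the lower, and the groups overlapped. The difference from vehicle was 0.67 at 80 mg/kg (limma adjusted p = 0.0541) and 0.55 at 10 mg/kg (adjusted p = 0.524). At 6 h the direction was the opposite, with a difference of -0.29 at 80 mg/kg (adjusted p = 0.813), which turned to 0.093 with signals as deposited. The differences at 168 and 336 h were -0.06 and -0.03. A test of unequal effects of 80 mg/kg at the 4 times gave an adjusted p of 0.286 for Cox5a. Over all members that test called 0 of 85 (5 at an unadjusted p under 0.05), and 0.0215% of all probe sets were called. The same test for 10 mg/kg called 0 members (1 unadjusted) and 0% of all probe sets.

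The 24 h value of Cox5a came with unequal array quality. In vehicle at 24 h, 5 of 6 arrays lay in the cluster with high hexokinase differences, while the higher dose had 1 of 5 there and the lower dose 2 of 5. Cox5a fell with the hexokinase difference, with a slope of -0.20 per unit (adjusted p = 6.18e-05). Among the members 15 of 85 (17.6%) had a called slope, 11 of them positive, beside 22.1% of all probe sets. Within a cluster the 24 h difference at 80 mg/kg was 0.30 (2 against 1 array) and 0.25 (1 against 5 arrays), and with the cluster as a term it was 0.40 (adjusted p = 0.233). With the hexokinase difference as a covariate, an alternative chosen after seeing the data, it was 0.42 (adjusted p = 0.472). The clusters were drawn from the same arrays' values, and few arrays of the compared groups shared a cluster. The part of array quality in the 24 h difference was not tested. The call changed with small steps: the adjusted p was 0.0149 with array weights and 0.0446 with a stricter filter. It lay between 0.0108 and 0.179 when 1 of the 11 arrays was left out, and under 0.05 without replicates 2 or 3 of vehicle or replicate 5 of 80 mg/kg. Leaving out 1 of 4 arrays of other groups also gave a call: replicate 1 of vehicle and replicate 4 of 80 mg/kg at 168 h, and replicates 2 and 6 of 10 mg/kg at 24 h.

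Ndufb8, an accessory subunit of complex I, had the most negative difference at 24 h. At 80 mg/kg it read 10.29, 10.25, 10.40, 10.41 and 10.24, and in vehicle from 10.46 to 11.16 with a median of 10.93. These groups did not overlap at 24 h. The difference of -0.52 had a limma adjusted p of 0.282, and at 10 mg/kg, where 2 of 5 arrays lay inside the vehicle range, it was -0.43 (adjusted p = 0.848). At 6, 168 and 336 h the differences at 80 mg/kg were 0.40, 0.22 and 0.21, with adjusted p of 0.75, 1 and 0.946, all opposite in sign to 24 h. Ndufb8 had a positive hexokinase slope of 0.14 (adjusted p = 0.0445). Within clusters at 24 h the difference at 80 mg/kg was -0.20 (2 against 1 array) and -0.51 (1 against 5 arrays). The part of array quality in it was not tested.

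**Figure D3:**
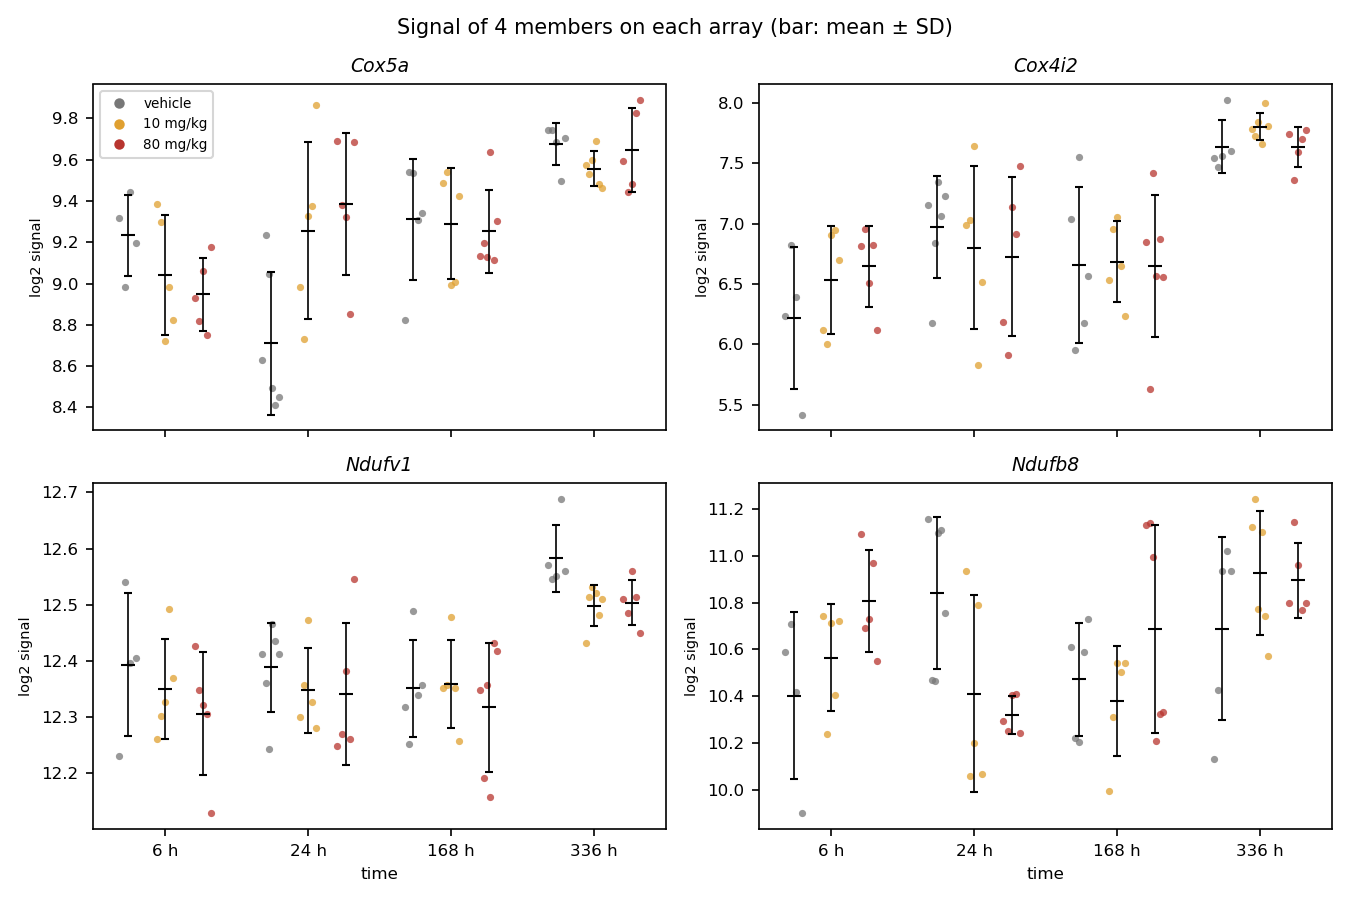
Log2 signal (y axis) of Cox5a, Cox4i2, Ndufv1 and Ndufb8 on each array in the 12 groups (x axis, time, colour for dose). Each point is 1 array and bars give the mean ± SD, with Cox5a low in vehicle at 24 h and Cox4i2 and Ndufv1 high at 336 h in all 3 dose groups.

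Between the times, without drug, 3 members differed. In the vehicle groups limma's F test over the 4 times called Cox5a (adjusted p = 0.000836), Cox4i2 (adjusted p = 0.0106) and Ndufv1 (adjusted p = 0.0412). That is 3.53% of the members, beside 8.05% of all probe sets. Cox4i2, the oxygen-responsive isoform of subunit 4, read 6.24, 6.82, 6.40 and 5.42 in vehicle at 6 h and 7.54, 7.47, 7.56, 8.02 and 7.60 at 336 h. The 6 h and 336 h arrays did not overlap. Ndufv1 read 12.23, 12.54, 12.40 and 12.40 at 6 h and 12.57, 12.55, 12.55, 12.69 and 12.56 at 336 h, where the lowest late array was about level with the highest early one. Cox5a had vehicle means of 9.23 ± 0.20 (SD, n = 4), 8.71 ± 0.35 (n = 6), 9.31 ± 0.29 (n = 5) and 9.67 ± 0.10 (n = 5) in time order, lowest at 24 h.

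These differences between times moved with the clusters of arrays. With the cluster as a term the F test called 0 members, and the adjusted p was 0.104 for Cox5a, 0.77 for Cox4i2 and 0.816 for Ndufv1. With signals as deposited 0 members were called as well, with adjusted p of 0.0624, 0.324 and 0.579. Ndufv1 also missed the threshold with arrays set to a common median (0.482), with no filter (0.0964) and in 9 of 20 fits that left out 1 vehicle array (up to 0.154), namely replicate 6 at 6 h, replicates 2, 4 and 5 at 168 h and each replicate at 336 h. Without the 10 high-Myl7 arrays 1 member, Cox5a, was called. The 336 h arrays all share 1 cluster, so time and cluster cannot be told apart for them. Of the marker lists, Col3a1 and Pdgfra (fibroblast), Mrc1 (macrophage) and Alas2 and Hbb (red blood cell) were called in the same F test. Not among the calls were Col1a1, Col1a2, Dcn and Lum (fibroblast), Cd68, Csf1r and Cd163 (macrophage) and Slc4a1 and Hba1 (red blood cell). Over all probe sets 8.05% were called. The part of the called markers in the result was not tested. The clusters were drawn from the same arrays' values, and their member levels are a description. Cox4i2 averaged 6.22, 6.95 and 7.64 in the clusters, and in the arrays of the third cluster from before 336 h it averaged 7.45.

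At the level of group means, the latest time stood apart for a share of the members. In 22 of 85 (25.9%), all 3 group means at 336 h lay above the 9 earlier ones, a pattern found in 11.1% of all probe sets, and in 7 (8.24%) all 3 lay below, beside 11.5% of all. This count was chosen after the values were seen. Of the 22, 13 belong to complex I, 3 to complex III, 4 to complex IV and 2 to complex V. The count depended on the scaling: with arrays set only to a common median it was 5 members (5.88%, beside 7.94% of all), and with signals as deposited 24 (28.2%, beside 11.8%).

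**Figure D4:**
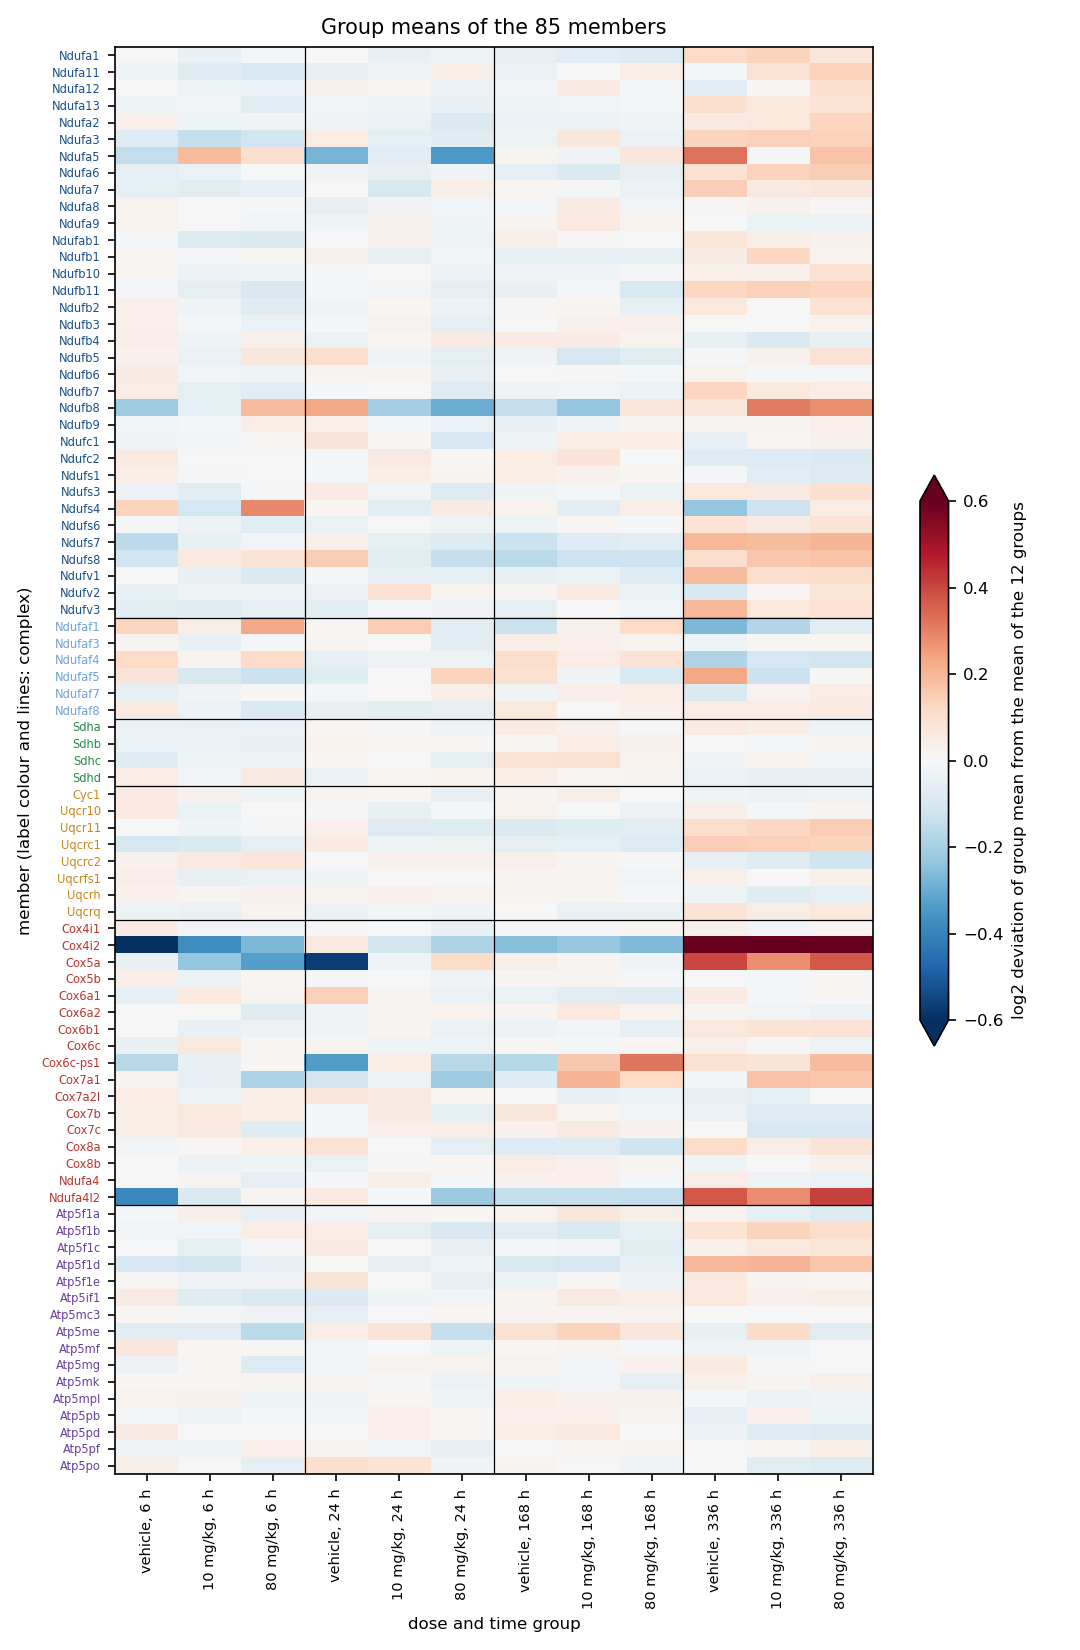
Group means of the 85 members (rows, ordered by complex) in the 12 groups (columns), as the log2 deviation from the mean of the 12 groups, with the colour scale ending at 0.6 in either direction. Most rows are pale, Cox4i2 spans 1.58 and Cox5a 0.96.

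The members varied little among groups and among replicates. The range of the 12 group means had a median of 0.16 over members and 0.53 over all probe sets, and 55 of 85 members had a range under 0.2. Cox4i2 had the widest range at 1.58, followed by Cox5a at 0.96, Ndufa4l2 at 0.80, Ndufa5 at 0.67, Cox6c-ps1 at 0.66, Ndufb8 at 0.61 and Ndufs4 at 0.52. The median SD within groups was 0.08 for members and 0.30 for all probe sets. The members are bright: 64 of 85 had a mean level of 12 or more, as did 295 of all probe sets tested, whose median SD was 0.09. Quantile normalization gives the top ranks of every array the same values, so a shift shared by most of the brightest probe sets cannot show in these data. Single bright genes could still be called. Fabp4 (a fatty acid binding protein) rose by 0.93 and Cd36 (a fatty acid transporter) by 0.42 at 80 mg/kg averaged over times (limma adjusted p = 3.81e-15 and 0.00868), and Acadm, an enzyme of fatty acid oxidation, fell by 0.14 (adjusted p = 0.0473).

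Another scaling moved the members' median, at 24 h together with that of all probe sets and at 6 h away from it, as for other bright probe sets. With arrays set to a common median, it was -0.13, -0.17, 0.05 and 0.04 at 80 mg/kg against vehicle at the 4 times, beside 0.04, -0.17, -0.01 and 0.04 over all probe sets. It was thus -0.18 relative to all probe sets at 6 h and between -0.00 and 0.06 at the later times. The 231 other probe sets with a mean level of 12 or more had medians of -0.11, -0.16, 0.07 and 0.03 in the same comparisons. No member was called in any comparison of doses under that scaling or with signals as deposited.

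Several subunits exist in more than 1 form, some of them as a muscle and a general form, and the balance within 4 pairs was compared. The fifth pair, Cox7a1 with Cox7a2, could not be formed because Cox7a2 has no member, and Cox7a1, the muscle form, differed by 0.02 ± 0.07 at 80 mg/kg averaged over times (limma adjusted p = 0.97). On each array the log2 signals of the 2 probe sets were subtracted, which gives a change in balance but no ratio of transcripts. At 80 mg/kg, averaged over times, Cox6a2 (heart form) against Cox6a1 (general form) shifted by 0.03 and Cox8b against Cox8a by 0.06. Cox4i1 (general form) against Cox4i2 shifted by -0.07, and Ndufa4 against its paralogue Ndufa4l2 by -0.09. At 10 mg/kg the shifts were 0.04, 0.04, -0.11 and -0.04. In permutation tests within each time (two-sided, 100000 resamples, 41 arrays each) the smallest of the 8 p-values was 0.277, for Cox8b against Cox8a at 80 mg/kg, and every adjusted p was 0.729. Without the 10 high-Myl7 arrays the shift of Cox4i1 against Cox4i2 turned to 0.04 at 80 mg/kg and 0.09 at 10 mg/kg. That of Ndufa4 against Ndufa4l2 turned to 0.07 at 10 mg/kg. These values at 10 mg/kg lack 4 of the 5 arrays of that dose at 6 h.

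**Figure D5:**
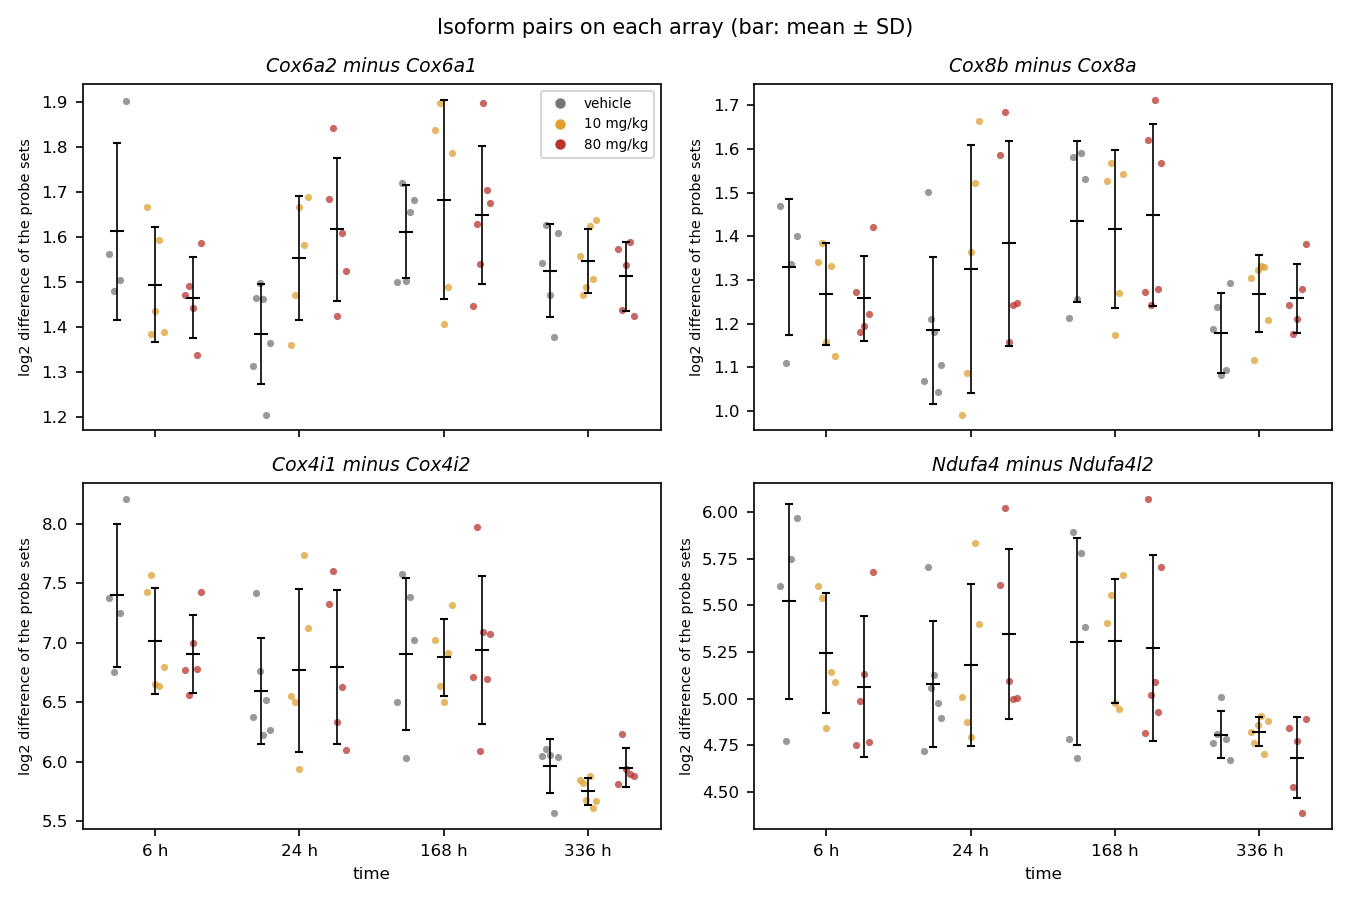
Log2 difference between the 2 probe sets of each isoform pair (y axis) on each array in the 12 groups (x axis, time, colour for dose). Each point is 1 array and bars give the mean ± SD, and the groups of a time overlap in all 4 panels.

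Genes around the complexes were taken in 5 lists. They held 39 assembly factors outside the Ndufaf genes, 20 regulators of mitochondrial gene expression, 15 genes of the citric acid cycle and pyruvate dehydrogenase, 14 inner membrane carriers and 16 genes of coenzyme Q synthesis and electron entry. In limma 0 genes of each list were called for either dose averaged over times, and at an unadjusted p under 0.05 there were 2, 2, 2, 1 and 5 at 80 mg/kg and 2, 3, 0, 1 and 2 at 10 mg/kg. Over all probe sets those shares were 9.54% and 4.77%. The list medians at 80 mg/kg were -0.02, 0.01, -0.01, -0.02 and -0.02, beside -0.00 over all probe sets. Ppargc1a, the coactivator of mitochondrial biogenesis, differed by 0.06 ± 0.09 (adjusted p = 0.912), and Esrra, an oestrogen-related receptor, by -0.10 ± 0.08 (adjusted p = 0.759). Tfam, a factor for the transcription and packaging of mitochondrial DNA, differed by -0.07 ± 0.04 (adjusted p = 0.633), and Cs, citrate synthase, by -0.03 ± 0.03 (adjusted p = 0.759).

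Between vehicle times the F test called 1, 2, 1, 3 and 0 genes of those lists, where 8.05% of all probe sets were called. They were Acad9 (a complex I assembly factor, adjusted p = 0.0494), Esrra (0.0328), Ppard (a lipid-sensing receptor, 0.0401), Ogdh (a citric acid cycle enzyme, 0.0117), Slc25a5 (an ADP/ATP carrier, 0.0194), Ucp2 (0.0467) and Ucp3 (0.00786). Ucp3, a mitochondrial uncoupling protein of muscle, had vehicle means of 5.33, 6.82, 7.29 and 7.55 in time order, and Esrra of 8.55, 8.75, 8.72 and 9.21. The first Ucp3 mean lay near the filter level of 5.03. As for the members, time and cluster cannot be told apart at 336 h. Slc25a5 had its lowest vehicle mean at 336 h.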

How the data were processed

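Total RNA of 62 samples was measured on Affymetrix rat arrays. The authors deposited an intensity for each probe set on each array, not log transformed, and the submitters' processing notes name GCOS and MAS5 without a version. Of 31099 probe sets, 57 controls were left out. Gene names came from GEO's platform annotation, in which 20826 probe sets name 1 gene, 436 several and 9780 none.

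Signals were log2 transformed and quantile normalized. Probe sets with a mean in the lowest 40% were left out. The 12 groups were fitted together with limma 3.58.1 in R 4.3.3 (50 residual and 2.36 prior degrees of freedom), with p-values adjusted over 18625 probe sets and calls at an adjusted p under 0.05. The steps were tested on simulated data. The number of arrays, not read depth, limits precision. Members and gene lists were chosen with earlier results of these data known.

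Members named singly are those called in any test, the 2 of each complex with the largest difference at 80 mg/kg averaged over times, the isoform pairs, the complex II genes and Cyc1. Ndufv2 and Ndufb7 were added after their values were seen. Other scalings, filters, covariates, left-out arrays and replicate blocks were tried.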

Additional observations from a re-analysis of the deposited data

Results flagged for a closer look

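Of 132 series of values examined for a stray array (11 medians and genes in 12 groups), 5 held 1 array far from the rest, and chance alone marks about 1 in 20. The complex I median of replicate 3 in vehicle at 336 h was -0.0025, with the others at 0.05 to 0.06. Cox5a of replicate 4 at 80 mg/kg and 168 h was 9.64, with the others at 9.12 to 9.30. Vehicle at 336 h, replicate 5, stood apart in 3 genes, with Cox5a at 9.50 (others 9.68 to 9.74), Cox4i2 at 8.02 (others 7.47 to 7.60) and Ndufv1 at 12.69 (others 12.55 to 12.57).

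For 4 named members every 80 mg/kg array lay above the vehicle mean at 1 time or more and below it at another. No share over all probe sets stands beside this count. Some of the named members were chosen for large differences or after their values were seen. Cox5a differed by -0.29 at 6 h and 0.67 at 24 h. Ndufb8 differed by 0.40 at 6 h, -0.52 at 24 h and 0.21 at 336 h. Ndufaf5 differed by -0.21 at 6 h, 0.21 at 24 h and -0.23 at 336 h, and Ndufv2 by -0.056 at 168 h and 0.17 at 336 h. The F test of unequal effects of 80 mg/kg over the 4 times gave limma adjusted p of 0.286, 0.491, 0.701 and 0.652 for Cox5a, Ndufb8, Ndufaf5 and Ndufv2. Differences between single pairs of times were not tested.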

How the results depend on the processing

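With the settings tried, no member was called in a comparison of doses, apart from Cox5a at 24 h and 80 mg/kg, where the count was 1 with the 60th percentile filter and 1 with array weights, and 0 to 1 when arrays were left out in turn. The members' median moved most with the scale. With deposited signals it was, in time order, at 80 mg/kg against vehicle 0.19, -0.30, -0.15, 0.043, at 10 mg/kg -0.079, -0.30, -0.20, 0.077, between the doses 0.28, -0.0064, 0.041, -0.039, and averaged over times -0.054 at 80 and -0.12 at 10 mg/kg. With arrays set to a common median it was at 80 mg/kg against vehicle -0.13, -0.17, 0.051, 0.040, at 10 mg/kg -0.10, -0.066, 0.039, -0.057, between the doses -0.016, -0.11, 0.0084, 0.092, and averaged over times -0.052 at 80 and -0.043 at 10 mg/kg. Without the high-Myl7 arrays, 3 of the 5 at 80 mg/kg and 24 h, the 24 h medians were -0.0015 against vehicle and -0.0021 between the doses. The count of members called between vehicle times was 3, and 0 with deposited signals, 7 with the 60th percentile filter, 0 with the array cluster as a term, 14 with array weights, 1 without the high-Myl7 arrays and 2 to 8 when 1 array was left out. Ndufv1 had an adjusted p of 0.0202 to 0.154 in the last case.

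Signs that turned at 80 mg/kg averaged over times belonged to values near 0 and never to a call. With deposited signals Cox7a1 was -0.012, Cox8b -0.047, Sdhb -0.038, Sdhd -0.021 and Ndufv2 -0.0042. With a common median they were -0.010, -0.045, -0.035, -0.019 and -0.0020. At the single time of 6 h Cox5a, which was not near 0 at -0.29, turned to 0.093 with deposited signals. Cox4i2 and Ndufa4l2 were -0.047 and -0.000285 with the cluster term and -0.046 and -0.037 without the high-Myl7 arrays, where Sdhc was 0.000593. Sdhb and Sdhd were -0.0050 and -0.0012 with array weights and -0.0061 and -0.0039 without the 3 high-actin arrays. Sdhb was -0.000171 with the hexokinase and actin covariates, and Sdhd -0.0098 as a mean of its probe sets. With 1 array left out Cox4i2 ran from -0.024 to 0.10, Cox7a1 from -0.0089 to 0.051 and Sdhb from -0.0039 to 0.0065. The high-Myl7 arrays included 4 of the 5 at 10 mg/kg and 6 h. Without the high-Myl7 arrays the shift of Cox4i1 against Cox4i2 was 0.036 at 80 and 0.093 at 10 mg/kg, and that of Ndufa4 against Ndufa4l2 0.071 at 10 mg/kg. The causes were not tested.

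Equal replicate numbers gave no clear sign of paired samples. Of 52 same-number pairs, 14 correlated over 0.1, with a median of 0.01 (-0.26 to 0.34), beside -0.01 for pairs with other numbers. With a replicate block 0 members were called in each comparison of doses, Cox7a1 was -0.0027, and 2 were called between vehicle times, with an adjusted p of 0.326 for Cox5a, 0.0227 for Cox4i2 and 0.46 for Ndufv1. The hexokinase difference as the only covariate was added after the data were seen and changed no call or sign.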
